A study of Mus musculus with 29 samples.

Results

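The genes described here build, load and switch on MHC class II, the cell surface molecule that shows peptides from ingested proteins to CD4 T cells. They were chosen by name: H2-Aa, H2-Ab1, H2-Eb1, H2-DMa, H2-DMb1, H2-Oa, H2-Ob, Cd74, Ciita and Rfx5, each with every probe whose accession on the array matched the gene. Of these 10 genes, 9 were measured among the 15350 genes tested, and no probe matched H2-Eb1. The 9 genes had 15 probes, and each stood well above background on all 29 arrays, apart from the Cd74 probe, whose spot was marked as an outlier and left out on 2 arrays.

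Total RNA of whole lung from C57BL/6 mice aged 6 to 8 weeks was measured on 29 single-colour arrays. The mice were wild type or Klf15-/-, lacking a Krüppel-like transcription factor that is itself a known target of the glucocorticoid receptor, and received dexamethasone, a synthetic glucocorticoid, or saline. After saline, 4 wild-type and 3 Klf15-/- arrays were taken at 4 h, and 3 and 4 at 8 h. After dexamethasone at 2.5 mg/kg, 4 arrays of each genotype were taken at 4 h, and 3 wild-type and 4 Klf15-/- arrays at 8 h. Neither the kind of Klf15 allele nor the route of dosing is given in the sources used here. By its title, the study asks how the glucocorticoid receptor and Klf15 together set the course of gene expression. The samples are called biologic replicates in the protocol, and p-values cover only the spread among them.

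A class II molecule pairs an alpha with a beta chain, here H2-Aa with H2-Ab1 and, in strains that express both I-E chains, an Ea product with H2-Eb1. Cd74, the invariant chain, fills the groove of the newly made pair, and H2-DM (H2-DMa with H2-DMb1) later removes the last piece of Cd74 and helps peptides bind. H2-DO (H2-Oa with H2-Ob) restrains H2-DM and is made mainly by B cells. Ciita, the class II transactivator, does not bind DNA itself and is recruited by a complex on the class II promoters in which Rfx5 is a DNA-binding subunit. In lung, B cells, dendritic cells, macrophages and alveolar type 2 cells carry class II.

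The promoter design typical of class II genes is an X box, the binding site of the Rfx5 complex, followed by a Y box, bound by NF-Y. RefSeq promoter sequences (GRCm38.p6) were searched for 7 of the 10 genes, with 8 start sites in all. H2-Ab1 and Ciita had no sequence in the source used, and Cd74 was left out of the search. In the 250 bases before each start, both strands were searched for the X box core AGCAAC, the Y box core CCAAT and the glucocorticoid receptor palindrome. Only exact matches were counted, so a box with a changed letter was missed. The last 100 bases before the start are printed 5′ to 3′ on the gene's strand for the 3 promoters with the X box core followed by the Y box core, for 2 with a Y box core alone, and for Rfx5; capitals mark the cores, with ATTGG for a Y box core on the other strand.
H2-Oa, chr17:34092279-34092378, plus strand: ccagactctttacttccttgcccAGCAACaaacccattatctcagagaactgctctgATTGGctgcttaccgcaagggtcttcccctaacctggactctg
H2-Ob, chr17:34238805-34238904, plus strand: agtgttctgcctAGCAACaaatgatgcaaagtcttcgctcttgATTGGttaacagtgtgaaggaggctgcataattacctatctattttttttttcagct
H2-Eb1, chr17:34305767-34305866, plus strand: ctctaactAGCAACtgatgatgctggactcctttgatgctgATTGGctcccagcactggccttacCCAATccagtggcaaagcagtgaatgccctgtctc
H2-Aa, chr17:34287824-34287923, minus strand: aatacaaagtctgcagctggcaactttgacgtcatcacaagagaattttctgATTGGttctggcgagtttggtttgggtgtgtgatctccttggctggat
H2-DMb1, chr17:34153091-34153190, plus strand: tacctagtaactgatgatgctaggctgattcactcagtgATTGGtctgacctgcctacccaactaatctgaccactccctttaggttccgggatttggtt
Rfx5, chr3:94954008-94954107, plus strand: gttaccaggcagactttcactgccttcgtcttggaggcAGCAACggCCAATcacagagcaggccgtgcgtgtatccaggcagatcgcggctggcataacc
In H2-Oa, H2-Ob and H2-Eb1 the X box core was followed by a Y box core after 28, 25 and 27 bases. An X box core followed by ATTGG at a distance of 10 to 40 bases, read on either strand, stood in 0.447% of 32851 promoters of the same length. An X box core followed by CCAAT was not counted in that share. H2-Aa, H2-DMb1 and the second of the 2 H2-DMa starts held a Y box core without the X box core, and 33.8% of all promoters held a Y box core. Rfx5 held the X box core, which 12.2% of all promoters held, and 2 Y box cores, but neither at 10 to 40 bases after the X box core. None of the 8 promoters held the glucocorticoid receptor palindrome, which was in 0.387% of all promoters. A match is a description of letters and says nothing on binding in these lungs.

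On each array 75.5 to 88.5% of the 43379 spots were well above background and no spot was saturated; the number of arrays limits the precision. Levels below are log2 signals with the 75th percentile of the same array taken away, differences are on the log2 scale with the standard error (SE) of a linear model over all 29 arrays, and a gene is called when its Benjamini-Hochberg adjusted p over all 15350 genes was under 0.05. Klf15 was lower on every Klf15-/- array than on any wild-type array by both of its probes, at -0.82 to 1.45 against 2.05 to 4.37 by its second probe. One array stood apart within its group, as described with Ciita: replicate 49 of wild type, dexamethasone, 4 h. The 7 arrays of Klf15-/- lung under saline also shared a lower ratio of bright to dim probes of the same gene (-0.368 to -0.116 on the log2 scale, against -0.0836 to 0.286 on all other arrays).

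After dexamethasone nearly all of the class II genes were lower than after saline in both genotypes. In wild type 8 of 9 genes were called lower at 4 h and 8 of 9 at 8 h, with median differences of -0.78 and -1.59 (all genes tested: -0.03 and -0.06). Without Klf15 6 of 9 were called lower at 4 h and 8 of 9 at 8 h, with medians of -0.71 and -1.25 (all genes: 0.05 and 0.11). No member was called higher in any of the 4 comparisons. Among all genes tested, 22.4% and 14.3% were called lower in wild type at 4 and 8 h and 17.6% and 17.2% in Klf15-/- lung; called higher were 14.3% and 9.32% in wild type and 25% and 25.8% in Klf15-/- lung. The differences were not alike in size: read by each gene's brightest probe, Ciita, H2-Oa and H2-Ob had the 3 largest in each of the 4 comparisons, and Cd74 was called only in wild type at 8 h. Probe brightness differed too. The mean log2 signal, before the percentile was taken away, was 17.001 for Cd74 and 15.82 for H2-Ab1. It was 10.334 for H2-Oa, 10.324 for Ciita and 8.3118 for H2-Ob, but also 8.5396 for Rfx5, whose differences were smaller. At 8 h dimmer probes gave larger differences for H2-Ab1 and H2-DMb1, smaller ones for H2-Oa and a mix for H2-Aa and Rfx5. The part of brightness in these sizes was not tested. In whole lung, fewer cells that carry class II and less of its RNA per cell cannot be told apart.

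**Figure D1:**
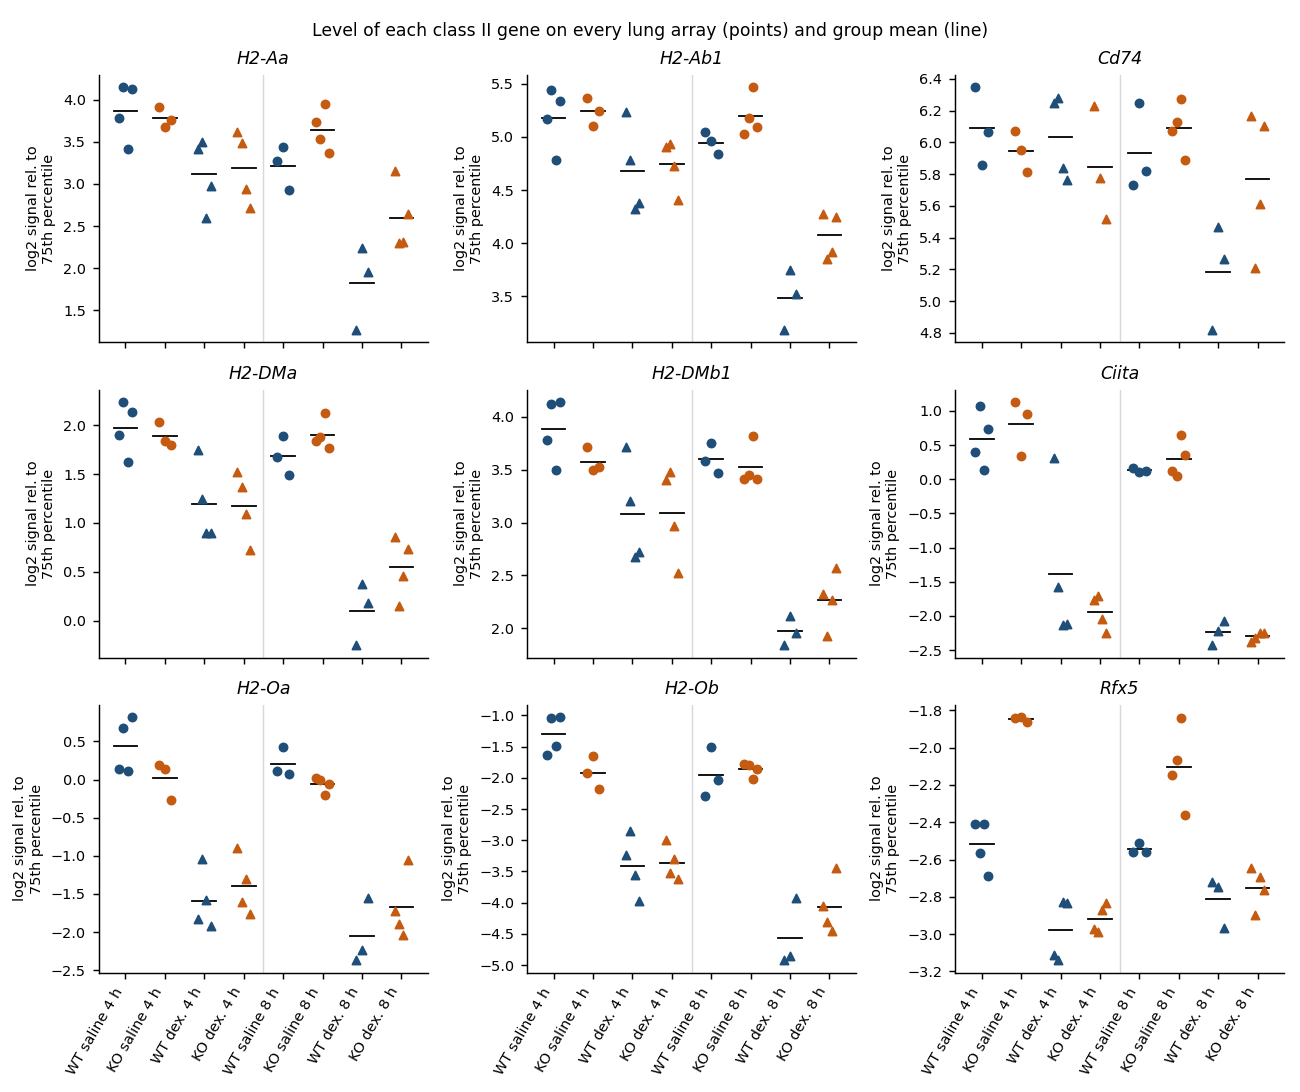
Level of 9 class II genes on each array (points) with the group mean (line), as log2 signal minus the 75th percentile of that array; circles are saline, triangles dexamethasone, blue wild type (WT) and orange Klf15-/- (KO), with 4 h left and 8 h right of the grey line. At 8 h all 3 wild-type dexamethasone arrays lie below all 3 saline arrays for every gene, while at 4 h 1 wild-type dexamethasone array keeps Ciita at 0.31.

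**Figure D2:**
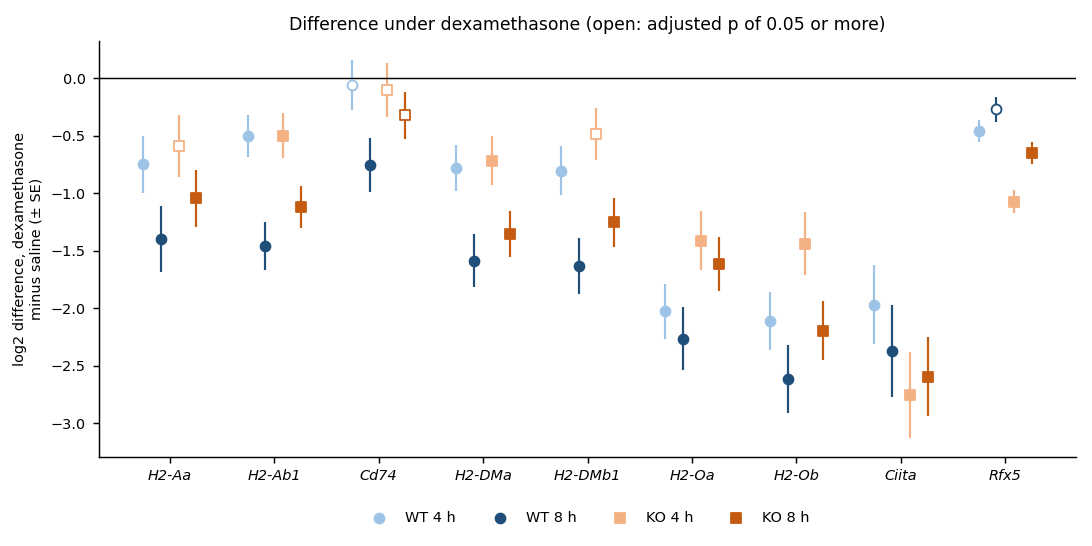
Log2 difference, dexamethasone minus saline, for each class II gene, with the standard error of the linear model as the bar; open symbols have an adjusted p of 0.05 or more. H2-Oa, H2-Ob and Ciita lie at -1.41 or lower in all 4 comparisons, and Cd74 at -0.75 or higher.

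H2-Ab1 encodes the beta chain of I-A, the class II molecule of C57BL/6 mice. Its level was 5.17, 5.44, 4.78 and 5.34 in wild type under saline at 4 h and 5.23, 4.79, 4.32 and 4.37 under dexamethasone. By 8 h it was 5.04, 4.96 and 4.83 under saline and 3.18, 3.75 and 3.52 under dexamethasone. The 4 h groups overlapped and the 8 h groups did not. The Klf15-/- arrays gave it at 5.37, 5.11 and 5.24 under saline at 4 h against 4.91, 4.93, 4.73 and 4.40 under dexamethasone. At 8 h in Klf15-/- lung it was 5.02, 5.18, 5.47 and 5.10 against 4.27, 3.85, 3.92 and 4.25. All Klf15-/- dexamethasone arrays were therefore below the saline arrays at both times. The difference was -0.50 (SE 0.18, adjusted p = 0.0322) at 4 h and -1.46 (SE 0.21, adjusted p = 1.84e-05) at 8 h in wild type. Without Klf15 it was -0.50 (SE 0.20, adjusted p = 0.0436) and -1.12 (SE 0.18, adjusted p = 3.04e-05), so that 8 h of dexamethasone left H2-Ab1 2.75-fold and 2.17-fold lower. The 4 h calls were marginal: they were lost under 8 of 24 alternative settings in wild type and 12 of 23 in Klf15-/- lung, with adjusted p up to 0.144 and 0.155. The 2 dimmer H2-Ab1 probes gave -1.73 and -1.67 in wild type and -1.21 and -1.19 in Klf15-/- lung at 8 h.

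H2-Aa, the alpha chain partner, followed the same course. It was 3.78, 4.15, 3.42 and 4.13 in wild type under saline at 4 h and 3.42, 3.50, 2.59 and 2.97 under dexamethasone. At 8 h it was 3.28, 3.44 and 2.93 under saline and 1.26, 2.24 and 1.96 under dexamethasone. Only the 8 h groups were apart. The Klf15-/- arrays gave H2-Aa at 3.91, 3.67 and 3.75 against 3.62, 3.49, 2.94 and 2.71 at 4 h. The 8 h values were 3.74, 3.53, 3.94 and 3.36 against 3.15, 2.30, 2.31 and 2.64. Both Klf15-/- pairs of groups were apart, by a margin at 4 h that did not pass the test. The differences in wild type were -0.75 (SE 0.25, adjusted p = 0.0208) at 4 h and -1.40 (SE 0.29, adjusted p = 0.000963) at 8 h. The Klf15-/- differences were -0.59 (SE 0.27, adjusted p = 0.0825) and -1.04 (SE 0.25, adjusted p = 0.00164). The second H2-Aa probe was called lower in all 4 comparisons, with -0.74 (adjusted p = 0.00806 over all 33931 probes) in Klf15-/- lung at 4 h.

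Cd74, the invariant chain that accompanies the new class II pair, had the smallest differences of the genes that act at the protein level. Its probe was also the brightest of the class II probes, and whether that made its differences smaller was not tested. In wild type at 8 h it was 5.73, 6.25 and 5.82 under saline and 4.82, 5.47 and 5.26 under dexamethasone, with no overlap. That difference was -0.75 (SE 0.24, adjusted p = 0.0240), and it was lost under 5 of 21 alternatives, with adjusted p up to 0.136. In Klf15-/- lung at 8 h Cd74 was 6.07, 6.13, 6.27 and 5.89 under saline and 6.16, 5.21, 5.61 and 6.10 under dexamethasone, where 2 of the 4 treated arrays stayed inside the saline range. The difference there was -0.32 (SE 0.20, adjusted p = 0.221). At 4 h it was -0.06 (SE 0.22, adjusted p = 0.873) in wild type and -0.10 (SE 0.24, adjusted p = 0.771) in Klf15-/- lung, where the left-out outlier spots reduced the wild-type saline group and the Klf15-/- dexamethasone group to 3 arrays each. The difference of the Cd74 effect between genotypes at 8 h was 0.43 (95% interval -0.22 to 1.08, adjusted p = 0.404).

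H2-DMa and H2-DMb1 encode the peptide exchange factor H2-DM. H2-DMa was 1.90, 2.24, 1.62 and 2.14 in wild type under saline at 4 h and 1.75, 1.25, 0.90 and 0.90 under dexamethasone. By 8 h it was 1.67, 1.89 and 1.49 against -0.25, 0.37 and 0.18. The 8 h groups stood more than 1 log2 unit apart. Without Klf15 H2-DMa was 2.04, 1.84 and 1.79 against 1.52, 1.37, 1.09 and 0.72 at 4 h. At 8 h it was 1.83, 1.88, 2.12 and 1.76 against 0.85, 0.15, 0.46 and 0.74. No Klf15-/- groups overlapped. The H2-DMa difference was -0.78 at 4 h (SE 0.20, adjusted p = 0.00345) and -1.59 at 8 h (SE 0.23, adjusted p = 2.25e-05) in wild type. It was -0.71 (SE 0.22, adjusted p = 0.00976) and -1.35 (SE 0.20, adjusted p = 9.87e-06) in Klf15-/- lung.

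H2-DMb1, the beta chain of H2-DM, ranged from 3.50 to 4.14 in wild type under saline at 4 h and from 2.68 to 3.72 under dexamethasone. At 8 h the ranges were 3.47 to 3.76 and 1.84 to 2.12. The Klf15-/- ranges were 3.50 to 3.71 and 2.53 to 3.48 at 4 h, and 3.41 to 3.82 and 1.92 to 2.57 at 8 h. The 4 h groups overlapped in wild type alone. The differences were -0.80 (adjusted p = 0.00440) and -1.63 (adjusted p = 3.47e-05) in wild type at 4 and 8 h. The Klf15-/- differences were -0.48 (adjusted p = 0.0965) and -1.25 (adjusted p = 5.62e-05). The second H2-DMb1 probe was called lower in all 4 comparisons, with -1.04 and -1.70 in wild type, and -0.97 (adjusted p = 0.00337) and -1.74 in Klf15-/- lung. H2-DMb2, a near-identical copy of H2-DMb1 with its own probe, gave -1.76 and -1.98 in wild type and -1.89 and -2.31 in Klf15-/- lung. Which copy each probe reads is uncertain.

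H2-Oa and H2-Ob, the chains of the H2-DM inhibitor H2-DO, fell in all 4 comparisons. H2-Oa was 0.13, 0.67, 0.12 and 0.82 in wild type under saline at 4 h and -1.83, -1.04, -1.57 and -1.92 under dexamethasone. The 8 h values were 0.11, 0.43 and 0.08 under saline and -2.37, -2.24 and -1.56 under dexamethasone. The groups were fully apart at both times. The Klf15-/- arrays gave H2-Oa at 0.20, 0.13 and -0.27 against -0.90, -1.60, -1.30 and -1.76 at 4 h. By 8 h it was 0.01, 0.00, -0.20 and -0.06 against -1.72, -1.90, -2.03 and -1.05. Here too no treated array reached the saline range. In wild type the H2-Oa difference was -2.03 (SE 0.24, adjusted p = 3.24e-07) at 4 h and -2.26 (SE 0.27, adjusted p = 2.22e-06) at 8 h, 4.08-fold and 4.80-fold lower. Without Klf15 it was -1.41 (SE 0.25, adjusted p = 9.70e-05) and -1.61 (SE 0.24, adjusted p = 8.64e-06), 2.66-fold and 3.06-fold lower. The second H2-Oa probe gave -1.73, -1.96, -1.38 and -1.48 in the same order. At 8 h in Klf15-/- lung the second H2-DMb1 probe thus gave a larger difference than either H2-Oa probe.

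H2-Ob was -1.64, -1.04, -1.49 and -1.02 in wild type under saline at 4 h and -3.23, -2.85, -3.56 and -3.98 under dexamethasone. At 8 h it was -2.30, -1.50 and -2.04 against -4.92, -4.85 and -3.93. In Klf15-/- lung it ranged from -2.18 to -1.66 under saline and from -3.62 to -2.99 under dexamethasone at 4 h, and from -2.01 to -1.79 and from -4.45 to -3.44 at 8 h. None of these pairs of groups overlapped. The differences were -2.11 (SE 0.26, adjusted p = 5.95e-07) and -2.62 (SE 0.30, adjusted p = 9.76e-07) in wild type, and -1.44 (SE 0.28, adjusted p = 0.000192) and -2.20 (SE 0.26, adjusted p = 4.07e-07) in Klf15-/- lung. At 8 h in wild type the fall was 6.14-fold. The smaller fall of H2-Oa in Klf15-/- lung did not pass the test of the difference: averaged over both times it was 0.63 (95% interval 0.12 to 1.15, adjusted p = 0.0597), and for H2-Ob 0.55 (adjusted p = 0.137).

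Ciita, the coactivator that the class II promoters need, fell steeply in both genotypes. It was 0.40, 1.07, 0.14 and 0.73 in wild type under saline at 4 h and 0.31, -1.58, -2.13 and -2.13 under dexamethasone. The 8 h values were 0.17, 0.10 and 0.11 under saline and -2.43, -2.22 and -2.07 under dexamethasone. Apart from the array at 0.31 (replicate 49), every treated wild-type array was below every saline array. Without Klf15 Ciita was 1.13, 0.34 and 0.95 against -1.76, -1.71, -2.05 and -2.26 at 4 h. By 8 h it was 0.13, 0.05, 0.64 and 0.36 against -2.39, -2.32, -2.24 and -2.26. The 4 treated arrays at 8 h lay close together. In wild type the Ciita difference was -1.97 (SE 0.34, adjusted p = 7.20e-05) at 4 h and -2.37 (SE 0.40, adjusted p = 0.000115) at 8 h. Without Klf15 it was -2.75 (SE 0.37, adjusted p = 2.67e-06) and -2.60 (SE 0.34, adjusted p = 2.46e-06), 6.75-fold and 6.05-fold lower. The difference of the Ciita effect between genotypes was -0.78 at 4 h (95% interval -1.83 to 0.26, adjusted p = 0.311). Without replicate 49 the wild-type difference at 4 h was -2.53 (adjusted p = 2.67e-09) and the difference between genotypes -0.22 (adjusted p = 0.677).

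Replicate 49 was singled out after its values were seen. Of the 9 class II genes, 5 were at or above the lowest wild-type saline array on it, against 3, 0 and 0 on the other treated arrays. The same held for 10 of 12 interferon gamma induced genes on replicate 49, against 1, 0 and 0, and for 12 of 14 class I presentation genes, against 6, 2 and 3. Gbp4, a guanylate-binding protein induced by interferon gamma, was 0.64 on it and -3.18, -4.01 and -3.59 on the others, with saline arrays from 0.07 to 0.43. Not all interferon gamma induced genes were high: Cxcl10, a chemokine, was -4.30, below the saline range of -2.48 to -1.89, and Icam1, an adhesion molecule, was 0.70, below 1.56 to 1.72. H2-Oa and H2-Ob were low on this array (-1.83 and -3.23), as were the B cell markers, of which 1 of 15 reached the saline range on each of the 4 arrays. All 7 measured genes of the glucocorticoid response check were at or above the lowest saline array on all 4 treated arrays. Without replicate 49, 8 of 9 class II genes were called lower in wild type at 4 h, with a median of -0.96 (all genes: 20% called lower). The cause was not tested.

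**Figure D3:**
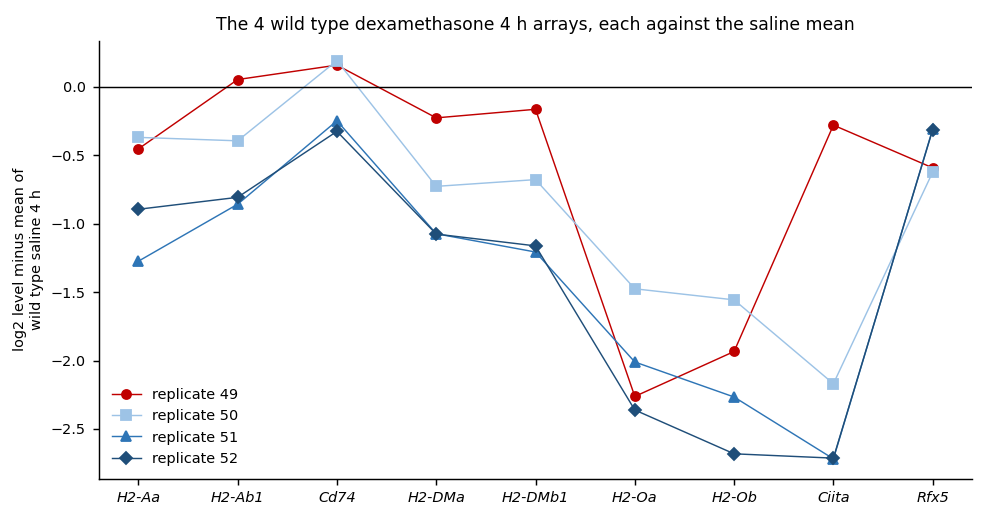
Level of each class II gene on the 4 wild-type dexamethasone arrays at 4 h, minus the mean of the 4 h wild-type saline arrays (log2). Replicate 49 (red) lies near the saline mean for H2-Ab1, H2-DMa, H2-DMb1 and Ciita and far below it for H2-Oa and H2-Ob.

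Rfx5, the DNA-binding subunit of the complex that recruits Ciita, was the member whose dexamethasone effect differed between genotypes. It was -2.41, -2.56, -2.41 and -2.69 in wild type under saline at 4 h and -3.11, -3.14, -2.83 and -2.83 under dexamethasone. At 8 h it was -2.56, -2.51 and -2.56 against -2.72, -2.75 and -2.97. The treated arrays lay just below the saline arrays. The Klf15-/- arrays gave Rfx5 at -1.84, -1.83 and -1.86 under saline and -2.97, -2.99, -2.87 and -2.83 under dexamethasone at 4 h. The 8 h values were -2.14, -2.07, -1.84 and -2.36 against -2.65, -2.90, -2.70 and -2.76. The Klf15-/- saline arrays were above all wild-type saline arrays, whereas the treated arrays of both genotypes lay together. The wild-type difference was -0.46 at 4 h (SE 0.10, adjusted p = 0.000492) and -0.27 at 8 h (SE 0.11, adjusted p = 0.0830). The Klf15-/- difference was -1.07 (SE 0.10, adjusted p = 1.91e-08) and -0.65 (SE 0.10, adjusted p = 9.60e-06).

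Under saline Rfx5 was higher in Klf15-/- lung by 0.67 at 4 h (SE 0.10, adjusted p = 0.000254) and by 0.44 at 8 h (SE 0.10, adjusted p = 0.00801). No slide held both of these genotypes at 4 h. The 1 slide that did at 8 h, with 1 array of each, gave 0.20. Under dexamethasone the genotypes differed by 0.06 at 4 h (95% interval -0.14 to 0.26) and by 0.06 at 8 h (-0.15 to 0.27). The difference of the dexamethasone effect between genotypes was -0.61 at 4 h (SE 0.14, adjusted p = 0.00842), -0.38 at 8 h (SE 0.15, adjusted p = 0.110) and -0.50 averaged over both times (SE 0.10, adjusted p = 0.00126). The dimmer Rfx5 probe gave 0.70 (adjusted p = 0.0488 over all probes) for the genotype difference under saline at 4 h, 0.03 (adjusted p = 0.955) at 8 h and -0.27 (adjusted p = 0.465) for the mean difference of effects, so the probes disagree at 8 h. The Klf15-/- saline arrays, on which Rfx5 was high, are also those with the low ratio of bright to dim probes. With that ratio as a covariate, the genotype difference at 4 h was again 0.67 but with an adjusted p of 0.164, and the mean difference of effects was -0.49 with an adjusted p of 0.0585. The part of the ratio in the Rfx5 result was not tested further. The 4 h difference of effects was also not called after quantile normalization (-0.49, adjusted p = 0.0822), median scaling (-0.48, adjusted p = 0.0857), background correction by normexp (-0.37, adjusted p = 0.122) or in the deposited table (-0.47, adjusted p = 0.125).

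**Figure D4:**
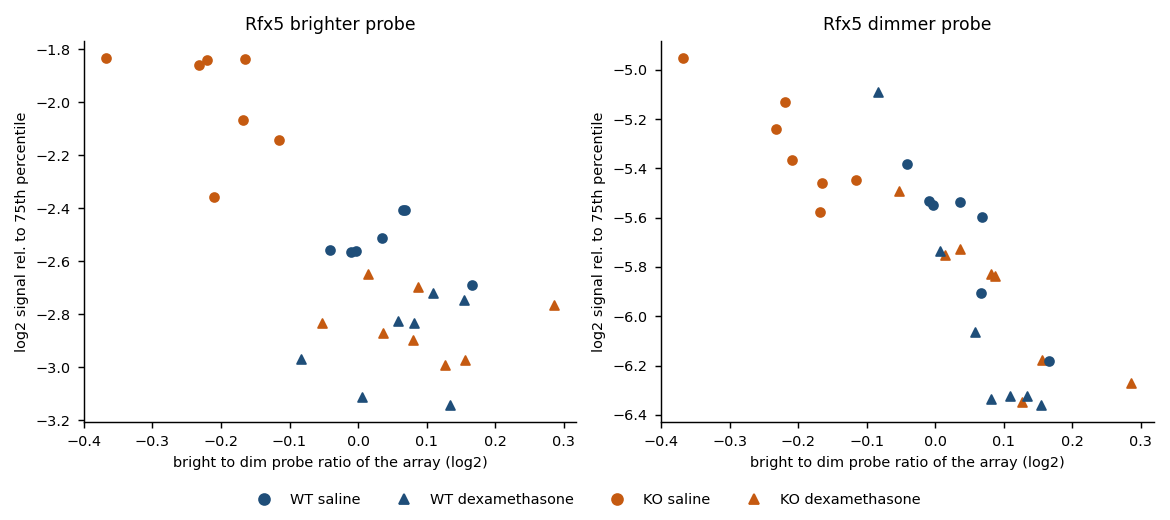
Level of the brighter (left) and dimmer (right) Rfx5 probe, as log2 signal minus the 75th percentile of that array, against the array's ratio of bright to dim probes of the same gene (log2, centred over arrays). Each point is 1 of 29 arrays; the 7 Klf15-/- saline arrays (orange circles) have the lowest ratios, -0.368 to -0.116, and the highest levels of the brighter probe, -2.36 to -1.83.

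Apart from Rfx5, no class II gene was called between the genotypes. Under saline 1 of 9 was called higher in Klf15-/- lung at 4 h and 1 of 9 at 8 h (all genes: 6.07% and 5.03%), and averaged over the 4 conditions again 1 (all genes: 8.27%); the gene was Rfx5 each time. Under dexamethasone 0 of 9 were called at 4 h in either direction and 0 of 9 at 8 h (all genes: 0.971% and 4.95%). At 8 h, however, 8 of 9 differences pointed to higher levels in Klf15-/- lung, with a median of 0.45 (all genes: 0.04). Several of these genes vary together over arrays, so the signs are not independent, and the share of all genes with this sign was not counted. H2-Aa was higher by 0.78 (95% interval 0.22 to 1.34, adjusted p = 0.0870) and H2-Ab1 by 0.59 (0.18 to 0.99, adjusted p = 0.0775). For both, all Klf15-/- arrays lay above all wild-type arrays, as did 13.3% of all genes. Without replicate 62 of the Klf15-/- dexamethasone 8 h group 1 gene was called there. The dexamethasone effects differed between genotypes for 1 gene called lower at 4 h and averaged over times (Rfx5; all genes 3.15% and 6.75%) and for 0 at 8 h (all genes 6.53% in either direction). No slide held both genotypes under dexamethasone at either time, or under saline at 4 h.

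Among dexamethasone-treated wild-type arrays, 6 of 9 class II genes were called lower at 8 h than at 4 h, with a median of -1.10 (all genes: median 0.02, 6.37% called lower). H2-Aa differed by -1.30 (adjusted p = 0.00188), H2-Ab1 by -1.19 (adjusted p = 0.000184), H2-DMa by -1.10 (adjusted p = 0.00114), H2-DMb1 by -1.11 (adjusted p = 0.00189), H2-Ob by -1.16 (adjusted p = 0.00612) and Cd74 by -0.85 (adjusted p = 0.0127). H2-Oa (-0.47, adjusted p = 0.270), Ciita (-0.86, adjusted p = 0.149) and Rfx5 (0.17, adjusted p = 0.345) were not called. In Klf15-/- lung 2 of 9 were called lower (all genes: 3.8%), H2-Ab1 by -0.67 (adjusted p = 0.0239) and H2-DMb1 by -0.82 (adjusted p = 0.0175), with a median of -0.59. That count was 0 without replicate 57 or 58 of the 4 h group or replicate 62 of the 8 h group, 1 without replicate 59 or 63, and 5 with slide as a block. With only the 2 groups compared in the fit, 0 genes were called in either genotype. Under saline no class II gene was called between 8 and 4 h in either genotype (all genes: 1.39% in wild type and 1.07% in Klf15-/- lung). All 9 differences were below 0 in wild type under saline, though, with a median of -0.28 (all genes: -0.004). The share of all genes below 0 was not counted, and the signs of genes that vary together are not independent. The difference was -0.65 (adjusted p = 0.229) for H2-Aa and -0.65 (adjusted p = 0.243) for H2-Ob.

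The change in the dexamethasone effect itself, 8 h minus 4 h with saline taken away at each time, was called for 1 of 9 genes in wild type and 0 of 9 in Klf15-/- lung (all genes: 6.01% and 3.01% in either direction). Its median was -0.65 in wild type and -0.45 in Klf15-/- lung (all genes: -0.01 and 0.01). In each genotype 4 of 9 genes had an unadjusted p under 0.05 by limma. In Klf15-/- lung these included Rfx5, which went the other way, at 0.42 (adjusted p = 0.122). The share of all genes under that unadjusted threshold was not counted, so nothing is drawn from such counts here. The gene called was H2-Ab1, at -0.96 (SE 0.28, adjusted p = 0.0394) in wild type. H2-DMa gave -0.81 (adjusted p = 0.133) and H2-DMb1 -0.83 (adjusted p = 0.155), while H2-Oa gave -0.24 (adjusted p = 0.836) and Ciita -0.40 (adjusted p = 0.8). Without replicate 49 of wild type, dexamethasone, 4 h, 0 of 9 were called in wild type by limma, 3 had an unadjusted p under 0.05, and the median was -0.55.

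At the level of single arrays, in wild type at 4 h 3 of 9 genes (H2-Oa, H2-Ob and Rfx5) had all treated arrays below all saline arrays, among 20.4% of all genes. At 8 h all 9 did, among 22.2%. In Klf15-/- lung 8 of 9 did at 4 h and 8 of 9 at 8 h, with Cd74 the exception at both times, among 19.5% and 14.3%. Arrays lay on 8 slides of 2 to 4. With slide as a fixed block the counts called lower were 7 and 8 of 9 in wild type at 4 and 8 h and 6 and 9 of 9 in Klf15-/- lung. Within slides that held 1 array of each group, the median difference of the class II genes was -0.89 and -0.82 (wild type, 4 h), -1.31 (wild type, 8 h), -0.81 (Klf15-/-, 4 h), and -1.06 and -1.26 (Klf15-/-, 8 h).

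Genes of class II transcription and its signals, not all of them activators, were called in both directions. Of 24 measured, 10 were called lower and 4 higher in wild type at 4 h, and 5 and 3 at 8 h. In Klf15-/- lung 11 were lower and 6 higher at 4 h, and 7 and 7 at 8 h. At 8 h all genes were called lower and higher in 14.3% and 9.32% in wild type and in 17.2% and 25.8% in Klf15-/- lung, and the list was not tested against them. Irf8, an interferon regulatory factor of B cells and dendritic cells, gave -1.58 and -0.71 in wild type and -1.76 and -1.0 in Klf15-/- lung. Socs1, which is induced by and restrains interferon signalling, gave -1.48, -1.02, -1.43 and -1.02. Of the interferon gamma receptor chains, Ifngr2 fell by 0.75 on the log2 scale in wild type at 4 h, whereas Ifngr1 rose by 0.57 and 0.53 in Klf15-/- lung. At 4 h the effects differed between genotypes by 0.26 for Ifngr2 (adjusted p = 0.234) and by 0.50 for Ifngr1 (adjusted p = 0.00655). Ifngr1 was also lower in Klf15-/- lung under saline at 8 h, by -0.36 (adjusted p = 0.00593). Under dexamethasone its genotype differences, 0.21 at 4 h and -0.08 at 8 h, were not called.

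Genes of antigen processing and co-stimulation were called in both directions, and were not tested against the shares of all genes. Of 14 measured, 5 were called lower and 1 higher in wild type at 4 h, 3 and 2 at 8 h, and in Klf15-/- lung 2 and 4, then 3 and 3. Ctsh, a lysosomal protease, rose in all 4 comparisons, by 0.61, 0.58, 1.0 and 1.05, and Ctsl, a protease able to cut Cd74, by 0.50 in wild type at 8 h and by 0.62 and 0.65 in Klf15-/- lung. Cd83, which stabilises class II on the surface, was called lower at 4 h in both genotypes, with -1.42 in wild type and -0.98 in Klf15-/- lung. Marchf1, the ligase that takes class II off the surface, was lower as well in wild type, with -0.78 and -1.25.

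Interferon gamma induced genes and, by smaller differences, class I presentation genes were called lower too. Among all genes 22.4% and 14.3% were called lower in wild type at 4 and 8 h, and 17.6% and 17.2% in Klf15-/- lung. Neither list was tested against these shares. Of 12 measured interferon gamma induced genes, 7 and 8 were called lower in wild type at 4 and 8 h and 10 and 9 in Klf15-/- lung, and 0 were called higher, with medians of -0.88, -1.36, -1.35 and -1.20. Without replicate 49 the wild-type count at 4 h was 11, with a median of -1.42. Of 14 class I genes, 5 and 10 were lower in wild type and 5 and 8 in Klf15-/- lung, with medians of -0.19, -0.53, -0.23 and -0.35. Psmb9, an immunoproteasome subunit, gave -1.10 and -1.42 in wild type, and Tap1, a peptide transporter, -1.85 and -1.81 in Klf15-/- lung.

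Most B cell and T cell markers were also called lower. Of 15 B cell markers, 14 and 14 were called lower in wild type at 4 and 8 h and 14 and 13 in Klf15-/- lung, with medians of -2.67, -2.46, -1.83 and -2.15. Without replicate 49, 14 were called lower and 1 higher in wild type at 4 h. Of the 15, 14 were well above background on all 29 arrays and Blk on 22. Their summed level (log2 of the markers' added signals, on the same scale) was 3.56 to 4.61 on the saline arrays and 1.77 to 2.84 on the dexamethasone arrays. Cd22, a B cell receptor inhibitor, gave -1.77, -1.66, -1.57 and -1.99. Of 12 T cell markers, 9, 10, 7 and 10 were lower, with medians of -1.23, -1.53, -0.66 and -1.42. Of 10 measured dendritic cell markers, 7, 4, 5 and 6 were lower and 0, 1, 0 and 1 higher, with medians of -0.69, -0.85, -0.73 and -1.03; no probe matched Zbtb46 or Clec9a. Ccr7, the homing receptor of mature dendritic cells, gave -1.63 and -2.08 in wild type.

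Among macrophage and alveolar type 2 markers both directions were seen, as among all genes. In wild type at 4 and 8 h and Klf15-/- lung at 4 and 8 h, 22.4%, 14.3%, 17.6% and 17.2% of all genes were called lower. Called higher were 14.3%, 9.32%, 25% and 25.8%. Several counts below are near these shares, and no gene or marker list was tested against them. Of 11 measured monocyte and interstitial macrophage markers, 5, 5, 6 and 4 were lower and 1, 0, 1 and 1 higher, with medians of -0.30, -0.40, -0.43 and -0.05; Cx3cr1 and Ccr2, chemokine receptors of monocytes, gave -2.59 and -2.40 in wild type at 4 h. Of 11 alveolar macrophage markers, 0, 0, 2 and 2 were lower and 4, 1, 5 and 6 higher. Of 10 alveolar type 2 cell markers, 3, 1, 3 and 2 were lower and 1, 0, 4 and 4 higher. For comparison with a structural cell type, of 10 endothelial markers, 7, 5, 5 and 6 were lower and 1, 0, 1 and 1 higher. The 7 measured genes of the glucocorticoid response check gave 7, 5, 7 and 6 called higher and 0 lower. The part of any of these cell types in the class II result was not tested.

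After each group's mean was taken away, arrays within a group still differed. For each of 9 genes and 12 lists the correlation over arrays was computed, 108 relations in all, with 100000 permutations of arrays within groups (smallest p possible 1e-05). Ciita followed the summed interferon gamma induced genes with r = 0.927 and rho = 0.837 (n = 29, permutation p = 1e-05 for both, adjusted p = 0.00018 for r). Without replicate 49 this r was 0.736, and without the 2 farthest arrays 0.732. H2-Oa followed the B cell markers with r = 0.855 and rho = 0.772 (n = 29, permutation p = 3e-05 and 0.00015, adjusted p = 0.000405 for r), and 0.770 without the 2 farthest arrays. H2-Ob did so with r = 0.827 and rho = 0.757 (permutation p = 8e-05 and 0.00038, adjusted p = 0.000785 for r), and 0.71 without the 2 farthest. These are deviations of single arrays, each gene is shown with a list of high r, and no test compared lists with each other.

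The class II chains and H2-DM had an r near 0 with the B cell markers within groups. It was 0.0634 for H2-Aa, -0.00331 for H2-Ab1, 0.0679 for H2-DMa and 0.0583 for H2-DMb1. H2-Aa followed the monocyte and interstitial macrophage markers, with r = 0.879 and rho = 0.881 (n = 29, permutation p = 1e-05 for both, adjusted p = 0.00018 for r), and 0.837 without the 2 farthest arrays. H2-DMb1 followed the class I presentation genes with r = 0.919 and rho = 0.937 (permutation p = 1e-05 for both, adjusted p = 0.00018 for r), and 0.890 without the 2 farthest. Several lists went with the same gene: the r of H2-Aa with the class I genes was 0.701 and that of Ciita 0.815. H2-Oa with the interferon gamma induced genes gave r = -0.0783.

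**Figure D5:**
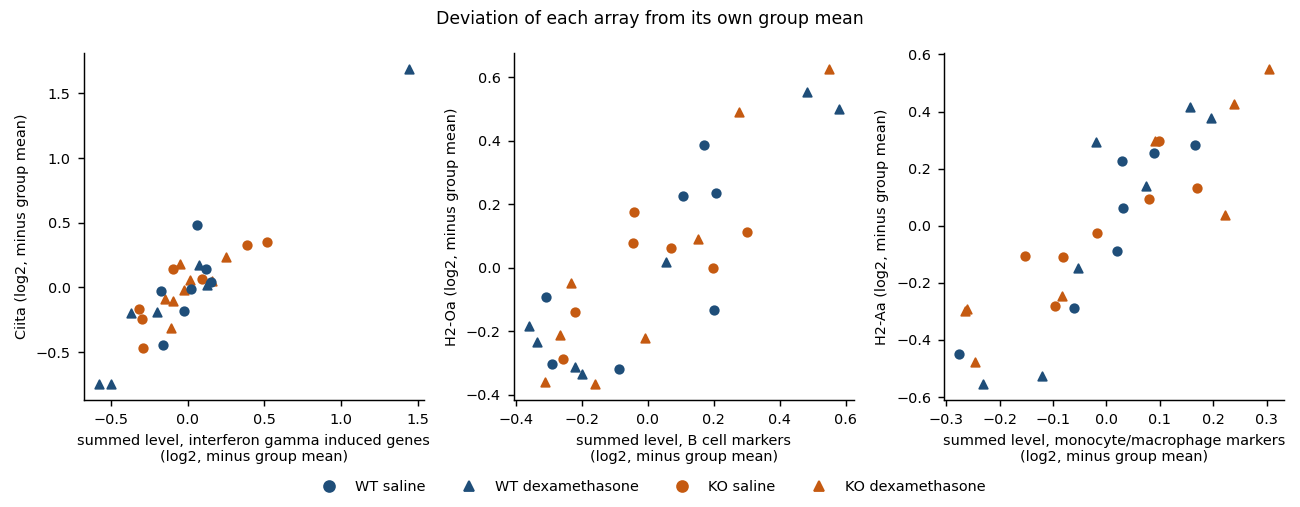
Deviation of each of 29 arrays from its group mean (log2): Ciita against the summed interferon gamma induced genes, H2-Oa against the B cell markers, and H2-Aa against the monocyte and interstitial macrophage markers. The r is 0.927, 0.855 and 0.879 in that order; the point at the upper right of the first panel is replicate 49 of wild type, dexamethasone, 4 h, without which r is 0.736.

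Among 14910 genes without a missing value, those most like the mean of the measured class II chains and Cd74 over all 29 arrays were Bst2 (r = 0.947, rho = 0.891), Mlec (0.928, 0.832), Fam114a1 (0.919, 0.815), H2-Q10 (0.919, 0.929) and Lgi2 (0.913, 0.812). The median r of all genes was -0.0544, and 211 genes were over 0.8; the 8 groups set much of this likeness. With group means removed they were H2-Q10 (r = 0.887, rho = 0.900), C1qa (0.855, 0.835), Ostc (0.854, 0.837), C1qb (0.845, 0.826) and Dok2 (0.831, 0.821), and 16 genes were over 0.8. H2-Q10 is a class I molecule, and C1qa and C1qb are complement chains made by macrophages.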

How the data were processed

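Whole lung RNA was labelled with Cy3 and hybridised to 4x44K whole mouse genome arrays, as the protocols in the labels say. The deposited scanner files give the intensity of each spot; per the file headers the software was Feature Extraction 10.7.3.1, and per the submitters' processing notes 10.6. A deposited table of log2 values, 1 per probe and array, was used only as an alternative: no source used here states its normalization, it follows the scanner log2 values with r = 0.976 to 0.986 and a slope of 0.717 to 0.864, and its column medians are 8.282 to 8.301.

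Control spots and outlier spots (0.101 to 0.908% per array) were dropped and spots of a probe averaged. The processed signal was scaled to each array's 75th percentile and taken to log2. A probe stayed in if it stood well above background on 3 or more arrays of a group (33931 of 41174). Accessions were matched to RefSeq genes (GRCm38.p6), which gave 1 gene for 24844 probes, several for 0 and none for 16330. A gene was read by its brightest such probe, and its other probes were tested in a fit over all of them. With limma 3.58.1 in R 4.3.3, 8 group means were fitted to all 29 arrays, and p-values were adjusted by Benjamini-Hochberg over 15350 genes within a comparison; 432 of these genes lack a value on some array. The fit was tested on simulated data.

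Arrays of a group correlated with r = 0.972 to 0.992. The genes and lists, and the rule for the names given (all class II genes, up to 4 genes per list with the lowest p, the 10 most alike by each measure, and Klf15), were chosen with earlier results of these data known; fewer are printed. Alternatives covered normalization, background, filters, probe choice, variance model, slide, covariates and leaving out each array; keeping outlier spots, and the test of the dexamethasone effect at 8 against 4 h, were added after seeing the data.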

Additional observations from a re-analysis of the deposited data

Results flagged for a closer look

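H2-DMb1 in Klf15-/- lung under saline at 8 h was 3.82 on replicate 47, while the other 3 arrays lay between 3.41 and 3.45. The gap makes up 0.9 of the group's range, and this was the only such array among 43 groups of 4 examined, where chance alone marks some. Rfx5 was marked because its dexamethasone effect differed between the genotypes, by -0.61 at 4 h (adjusted p = 0.00842) and by -0.50 averaged over both times (adjusted p = 0.00126).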

How the results depend on the processing

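No pairing of arrays by replicate number was possible because the groups share no replicate numbers. With 16 alternatives and each of the 29 arrays left out in turn, no class II gene with a call reversed its direction. H2-Oa, H2-Ob, H2-DMa and Ciita kept their calls in all 4 dexamethasone comparisons under every alternative that gave a value. Of 9 genes, the number called changed by over 1.5 times, or from 0, as follows; the cause was not tested. Dexamethasone in wild type at 4 h (8): 5 with only the groups compared. Genotype under saline at 4 h (1): 2 with median scaling, 2 with normexp, 3 with array weights and 0 with the bright to dim ratio as a covariate; at 8 h (1): 0 with the mean of a gene's probes, the dimmest probe or only the groups compared, and 2 with slide as a fixed block. Mean genotype (1): 2 with array weights or the deposited table, and 3 with slide as a fixed or random block. Difference of effects at 4 h (1): 0 with quantile normalization, median scaling, normexp, the dimmest probe, the covariate or the deposited table; at 8 h (0): 1 with array weights; averaged (1): 2 with probes above background on all arrays, trend and robust variance or array weights, and 0 with the dimmest probe or the covariate. From 4 to 8 h under saline (0): with array weights 1 in wild type and 2 in Klf15-/- lung. Under dexamethasone in wild type (6): 0 with only the groups compared; in Klf15-/- lung (2): 0 with median scaling, the dimmest probe or only the groups compared, 1 with normexp, the mean of probes or the deposited table, and 5 with array weights or slide as a fixed or random block. Without 1 array the counts ranged over 6 to 8, 7 to 8, 5 to 7 and 8 to 8 for dexamethasone (wild type 4 and 8 h, Klf15-/- 4 and 8 h), 0 to 1 for genotype under dexamethasone at 8 h (1 without Klf15-/- replicate 62), 1 to 2 for the mean genotype effect (2 without replicate 49), 1 to 3 for the averaged difference of effects (3 without wild-type replicate 56, 2 without 33, 35, 50, 60 or 63), and 5 to 6 and 0 to 3 for 8 against 4 h of dexamethasone in wild type and Klf15-/- lung. Median scaling shifted the median of all genes by -0.16 for genotype under saline at 4 h.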
